A study of Mus musculus with 12 samples.

Results

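Blood-brain barrier endothelial genes were followed in perihematomal caudate putamen 24 h after intracerebral hemorrhage (ICH). The 10 genes, *Cldn5*, *Ocln*, *Tjp1*, *Cdh5*, *Pecam1*, *Mfsd2a*, *Abcb1a*, *Plvap*, *Slco1a4* and *Slco1c1*, were chosen by symbol as well-known genes of this cell layer, and all 10 were found among the 54833 genes of the table and among the 21495 genes tested. RNA-seq had been made from 12 samples, 3 for each pairing of age (young or aged) with surgery (sham or ICH). All mice were male, WT and C57BL/6, with an age of 8 to 10 weeks in the young and of 20 to 22 months in the aged groups, and tissue of several animals was pooled in every sample, so that no value belongs to 1 animal. ICH mice had received type IV collagenase in saline into the right basal ganglia, and sham mice saline through the same needle track. Brains of perfused animals were sampled on the injected side, around the hematoma or at the matching site of sham slices. Collagenase digests the vascular basement membrane, the layer on which these cells rest, and bleeding in this model starts at the vessel wall. Each comparison asked whether ICH or age changed the RNA of the barrier genes, and the difference of the ICH responses asked whether age altered that response.

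Endothelial cells of brain capillaries are sealed to each other by tight junctions, built from claudins and occludin on a scaffold of zonula occludens proteins, and by adherens junctions of vascular endothelial cadherin. They carry few transport vesicles, and they move nutrients, hormones and drugs through dedicated transporters and efflux pumps. In the caudate putamen this barrier keeps plasma proteins out of the tissue, and it is known to leak in the first days after ICH. Expression of these genes is not confined to endothelium, since *Pecam1* is also found on platelets and leukocytes, *Tjp1* in many cell types, *Slco1c1* in astrocytes and choroid plexus, and *Ocln* in choroid plexus epithelium. In bulk tissue, fewer cells of a type and less RNA per cell cannot be told apart.

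The libraries held 28410896 to 37785160 counts on genes, and each barrier gene had at least 165 counts in every library. The 20 general endothelial genes and the 8 genes of striatal projection neurons were detected in all groups, the latter summing to 308.8 to 2821 CPM (counts scaled to a fixed library size). Choroid plexus genes, which mark a tissue that should be absent from caudate putamen, summed to 4207 CPM in young ICH sample 3, 2035 CPM in aged ICH sample 2 and 1599 CPM in aged ICH sample 1, against 13.9 to 512.5 CPM in the other 9 samples. These 3 samples stand apart, and the main values are also given without them, which leaves 2 young ICH samples and 1 aged ICH sample. Over all genes tested, 4.82% then rose in young and 1.19% in aged mice after ICH by edgeR.

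Upstream sequences are shown first, to set a gene that rose after ICH beside transporters that did not pass the test. RefSeq windows of 250 bases before the transcription start (GRCm38.p6) were given for 7 of the 10 genes, and *Cdh5*, *Pecam1* and *Plvap* are named only. The windows are those of *Cldn5* (chr16:18776597-18776846, plus strand), which rose after ICH, *Mfsd2a* (chr4:122961189-122961438, minus strand), which had an unadjusted *P* under 0.05 between the ages, and the transporters *Slco1a4* (chr6:141856221-141856470, minus strand) and *Slco1c1* (chr6:141524104-141524353, plus strand), which did not pass the test. They are written 5′ to 3′, with CG dinucleotides (CpG, the same on both strands) in capitals.
Cldn5: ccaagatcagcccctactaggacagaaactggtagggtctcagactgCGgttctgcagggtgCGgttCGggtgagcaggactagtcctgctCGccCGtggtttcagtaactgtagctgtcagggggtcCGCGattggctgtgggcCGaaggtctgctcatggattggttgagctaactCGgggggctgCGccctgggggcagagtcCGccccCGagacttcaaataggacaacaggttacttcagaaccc
Mfsd2a: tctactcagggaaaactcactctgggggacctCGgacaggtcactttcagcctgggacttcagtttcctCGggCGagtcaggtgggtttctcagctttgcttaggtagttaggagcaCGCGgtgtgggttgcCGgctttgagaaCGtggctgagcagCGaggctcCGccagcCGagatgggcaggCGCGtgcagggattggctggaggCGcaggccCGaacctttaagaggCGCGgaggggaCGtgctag
Slco1a4: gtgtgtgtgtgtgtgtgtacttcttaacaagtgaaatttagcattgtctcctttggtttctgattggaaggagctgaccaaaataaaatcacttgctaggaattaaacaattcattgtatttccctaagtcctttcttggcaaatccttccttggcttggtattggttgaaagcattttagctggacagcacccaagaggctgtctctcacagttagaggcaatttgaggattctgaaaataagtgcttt
Slco1c1: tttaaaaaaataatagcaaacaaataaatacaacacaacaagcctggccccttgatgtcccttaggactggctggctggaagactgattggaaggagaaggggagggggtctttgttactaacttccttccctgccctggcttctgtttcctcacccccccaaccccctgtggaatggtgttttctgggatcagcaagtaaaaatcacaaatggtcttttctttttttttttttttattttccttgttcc
The *Cldn5* window held 12 CpG and the *Mfsd2a* window 17, while the *Slco1a4* and *Slco1c1* windows held 0. Windows without CpG made up 7.87% of the 32851 RefSeq windows of this length, in which the median was 6. GC content was 59.6% for *Cldn5* and 61.6% for *Mfsd2a* but 39.2% for *Slco1a4* and 42.8% for *Slco1c1*, against a median of 52.4% over all windows. The windows of *Ocln* held 14 and 22 CpG, that of *Tjp1* 22 and that of *Abcb1a* 0, although the last 2 genes have windows that start 156537 and 92986 bases from the start of the gene in the annotation used for positions. The motif CTTTGA of TCF/LEF factors, which act in Wnt signaling, was searched on both strands and occurred in 13.8% of all windows, with 1 match in the *Mfsd2a* window, 2 in that of *Abcb1a* and 0 in the others.

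Levels of different genes were compared per length, as FPKM. In young sham mice *Cldn5* stood highest at 18.5 ± 1.47 FPKM (SD, n = 3, as throughout for FPKM), followed by *Tjp1* at 17.5 ± 0.70, and these neighbours overlapped. *Slco1c1* (10.98 ± 1.19 FPKM), *Slco1a4* (10.4 ± 1.12 FPKM) and *Mfsd2a* (10.2 ± 1.89 FPKM) overlapped with each other and lay above *Abcb1a* (6.998 ± 0.72 FPKM) in every sample. *Pecam1* (4.61 ± 0.18 FPKM) and *Cdh5* (4.22 ± 0.58 FPKM) came next and overlapped, and *Ocln* (2.77 ± 0.37 FPKM) and *Plvap* (2.72 ± 0.07 FPKM) were lowest and overlapped. In aged ICH mice *Cldn5* (25.9 ± 4.64 FPKM) and *Tjp1* (20.1 ± 0.59 FPKM) remained at the top, while *Pecam1* (9.11 ± 0.85 FPKM) and *Cdh5* (8.07 ± 0.64 FPKM) then lay among the transporters *Slco1a4* (9.05 ± 0.83 FPKM) and *Abcb1a* (7.32 ± 0.40 FPKM).

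**Figure D1:**
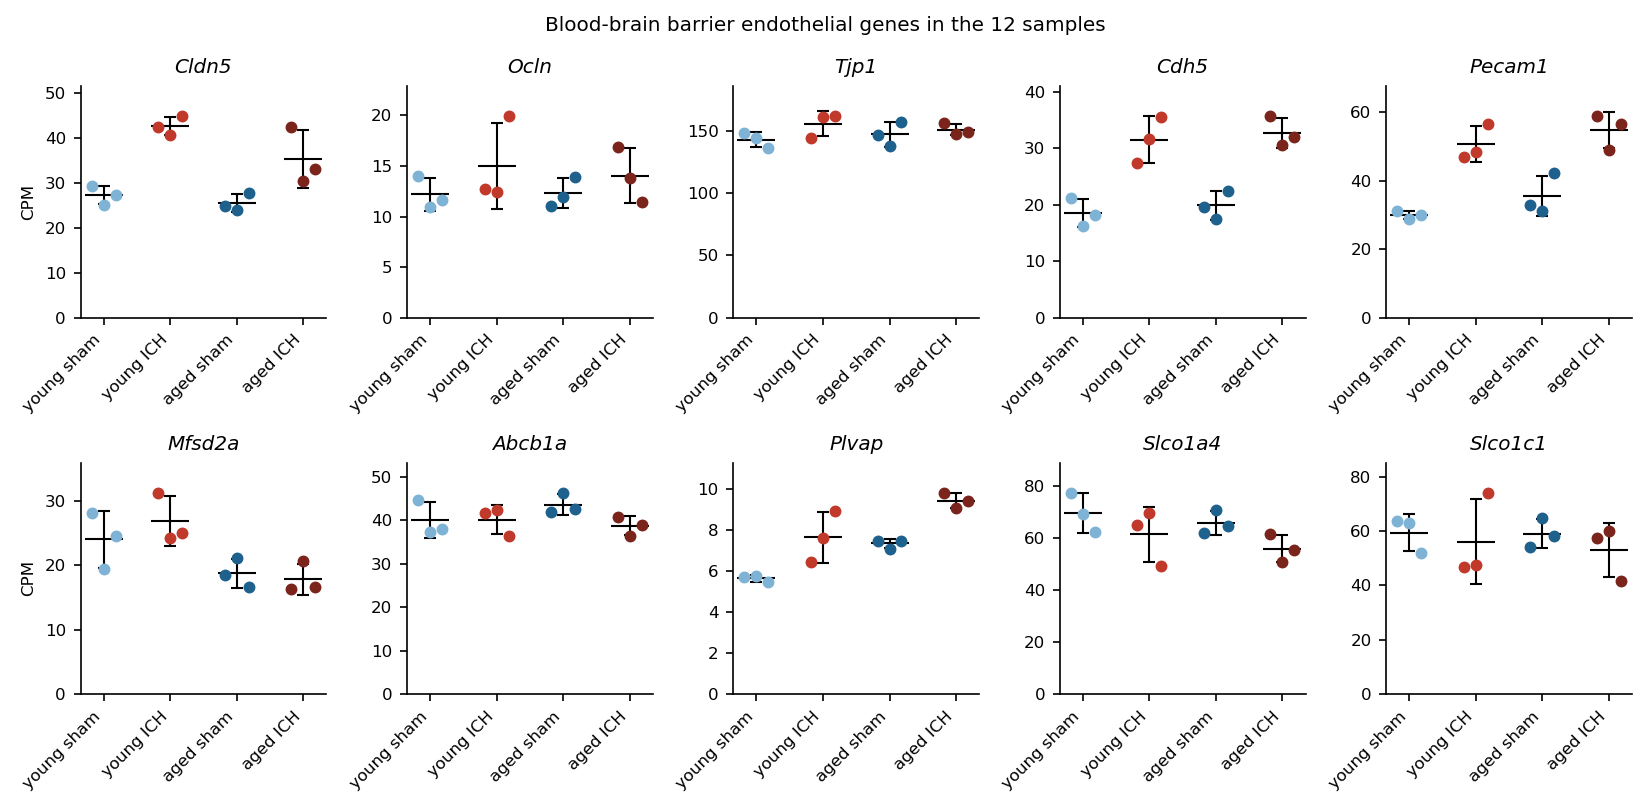
Each panel plots 1 gene in CPM (vertical axis from 0) in the 4 groups on the horizontal axis. Points are samples, and black lines are the mean ± SD of 3 samples. *Cldn5*, *Cdh5* and *Pecam1* lie higher in every ICH sample than in every sham sample of the same age, and *Plvap* lies higher in aged than in young mice under each surgery.

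After ICH *Cldn5*, *Cdh5* and *Pecam1* rose at both ages and *Plvap* in young mice, and the other members did not pass the test at either age. A gene was called when its *P* from edgeR's quasi-likelihood test, adjusted by Benjamini-Hochberg over all genes tested, was under 0.05. In young mice 4 of the 10 genes rose (*Cldn5*, *Cdh5*, *Pecam1*, *Plvap*) and 0 fell, where 9.89% of all genes tested rose and 9.23% fell. In aged mice 3 of the 10 rose (*Cldn5*, *Cdh5*, *Pecam1*) and 0 fell, against 7% and 6.15% of all genes. By the fold and unadjusted *P* limits with which the study defined DEGs, 3 rose in young mice (*Cldn5*, *Cdh5*, *Pecam1*), where 8.66% of all genes did, and 2 in aged mice (*Cdh5*, *Pecam1*), where 7.24% did. In young mice 4 of the 10 genes had every ICH sample above every sham sample and 0 had every one below, against 18.5% and 16.5% of all genes. In aged mice 4 lay above and 2 below in this way, against 17.8% and 17.3%. The median log2FC over the 10 genes was 0.23 in young and 0.11 in aged mice, where the median over all genes tested was 0.02 and 0.00. Without single samples it ranged from 0.15 to 0.35 in young and from 0.02 to 0.18 in aged mice, and without the 3 samples with choroid plexus RNA it was 0.15 in young mice and turned to -0.04 in aged mice.

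*Cldn5* (ENSMUSG00000041378, chr16:18776847-18778262, plus strand) encodes claudin-5, the most abundant claudin of brain endothelium and the one that restricts small molecules. Its level was 29.4, 25.2 and 27.5 CPM in young sham samples 1 to 3 and 42.6, 40.8 and 44.9 CPM in young ICH samples 1 to 3. In aged mice it was 24.9, 24.0 and 27.8 CPM after sham surgery and 42.6, 30.4 and 33.1 CPM after ICH. Every ICH sample lay above every sham sample of its age, and aged ICH sample 1, a sample with choroid plexus RNA, lay well above the other aged ICH samples. The rise was 1.56-fold in young mice (log2FC 0.64 ± 0.11 SE, adjusted *P* = 0.0041) and 1.38-fold in aged mice (log2FC 0.47 ± 0.12, adjusted *P* = 0.0228), both by edgeR. The call in aged mice was lost without aged ICH sample 1 (log2FC 0.31, adjusted *P* = 0.0865 by edgeR), without aged sham sample 1 (adjusted *P* = 0.0796) or without aged sham sample 2 (adjusted *P* = 0.0847).

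*Cdh5* (ENSMUSG00000031871, chr8:104101625-104144511, plus strand) encodes vascular endothelial cadherin, the adhesive protein of endothelial adherens junctions. It measured 21.1, 16.2 and 18.2 CPM in young sham and 27.3, 31.6 and 35.6 CPM in young ICH samples. Aged sham samples had 19.7, 17.5 and 22.5 CPM and aged ICH samples 35.7, 30.6 and 32.0 CPM. The groups of each age did not overlap. *Cdh5* rose 1.70-fold in young mice (log2FC 0.77 ± 0.13, adjusted *P* = 0.0034 by edgeR) and 1.65-fold in aged mice (log2FC 0.72 ± 0.13, adjusted *P* = 0.0074 by edgeR).

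*Pecam1* (ENSMUSG00000020717, chr11:106654217-106750628, minus strand) encodes CD31, an adhesion protein at endothelial cell borders. Its level was 31.1, 28.8 and 29.96 CPM in young sham and 46.9, 48.4 and 56.7 CPM in young ICH samples. It was 33.0, 31.3 and 42.3 CPM in aged sham and 58.8, 48.8 and 56.7 CPM in aged ICH samples. Aged sham sample 3 was the highest sham sample, yet lay below every ICH sample. The rise was 1.69-fold in young mice (log2FC 0.76 ± 0.12, adjusted *P* = 0.0024 by edgeR) and 1.54-fold in aged mice (log2FC 0.62 ± 0.12, adjusted *P* = 0.0086 by edgeR). Genes of blood cells that also carry CD31 moved in the same samples. Of 5 platelet genes tested, 3 rose in young mice (*Pf4*, *Itga2b*, *Ppbp*) and 2 in aged mice (*Pf4*, *Itga2b*), and the list summed to 5.36 to 7.22 CPM in the sham samples and 8.24 to 14.5 CPM in the ICH samples. Of 8 monocyte and macrophage genes 5 rose at each age. The list summed to 83.5 to 171.6 CPM in sham and 246.3 to 330.7 CPM in ICH samples. Most of that sum in young mice came from *Fn1*, with a mean of 104.4 CPM in sham and 218 CPM in ICH samples. Of 8 neutrophil genes tested 6 rose in young and 5 in aged mice. Their part in the rise of *Pecam1* was not tested.

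*Plvap* (ENSMUSG00000034845, chr8:71497765-71511752, minus strand) encodes the protein of the diaphragms of fenestrae and vesicles, which mature barrier endothelium largely lacks and leaky vessels carry. It was the lowest of the 10 genes in CPM, with 5.72, 5.74 and 5.44 CPM in young sham and 6.44, 7.59 and 8.92 CPM in young ICH samples. In aged mice it was 7.48, 7.08 and 7.46 CPM after sham surgery and 9.81, 9.07 and 9.40 CPM after ICH. Every ICH sample lay above every sham sample of its age, and the aged sham samples lay within the range of the young ICH samples. The highest young value was that of young ICH sample 3, the sample with the most choroid plexus RNA. Aged ICH sample 3, with little of that RNA, lay between the other aged ICH samples. The part of choroid plexus RNA in the level of *Plvap* was not tested. *Plvap* rose 1.36-fold in young mice (log2FC 0.44 ± 0.12, adjusted *P* = 0.0262 by edgeR), and in aged mice it differed 1.28-fold without passing the threshold (log2FC 0.36 ± 0.12, adjusted *P* = 0.0665 by edgeR). The call in young mice was lost without young ICH sample 3 (log2FC 0.31, adjusted *P* = 0.0941 by edgeR) or without any 1 of the young sham samples (adjusted *P* = 0.0569 to 0.0773), and the difference in aged mice passed with DESeq2 (adjusted *P* = 0.0405) or, in edgeR, without young ICH sample 1 (adjusted *P* = 0.0374) or sample 3 (adjusted *P* = 0.0328).

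The calls were also made without the 3 samples with choroid plexus RNA. In aged mice the loss of samples and the loss of choroid plexus RNA cannot be told apart. Without them, young mice kept *Cldn5*, *Cdh5* and *Pecam1* but not *Plvap* (log2FC 0.31). In aged mice 1 ICH sample was left and was assumed to vary like the other groups, and the calls of *Cldn5*, *Cdh5* and *Pecam1* were lost. The log2FC in aged mice were then 0.38 for *Cldn5*, 0.69 for *Cdh5* and 0.68 for *Pecam1* by edgeR. With all samples they were 0.47, 0.72 and 0.62.

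The remaining junction genes did not pass the test. *Ocln* (ENSMUSG00000021638, chr13:100496507-100552718, minus strand) encodes occludin, a membrane protein of the tight junction. It measured 13.98, 10.9 and 11.7 CPM in young sham, 12.7, 12.4 and 19.9 CPM in young ICH, 11.1, 11.97 and 13.95 CPM in aged sham and 16.8, 13.8 and 11.4 CPM in aged ICH samples. The groups overlapped, and the highest values were those of young ICH sample 3 and aged ICH sample 1, which had choroid plexus RNA. Its log2FC was 0.30 ± 0.20 in young mice (adjusted *P* = 0.312) and 0.19 ± 0.20 in aged mice (adjusted *P* = 0.574), by edgeR. Without single samples it ranged from 0.04 to 0.43 in young and from 0.03 to 0.31 in aged mice. Without the 3 samples with choroid plexus RNA it was 0.04 in young and -0.11 in aged mice. *Tjp1* (ENSMUSG00000030516, chr7:65296165-65527781, minus strand), which encodes the scaffold protein zonula occludens 1, ranged from 136.2 to 162 CPM over the 12 samples. Its log2FC was 0.12 ± 0.07 in young mice (adjusted *P* = 0.218) and 0.04 ± 0.07 in aged mice (adjusted *P* = 0.771), by edgeR, with a 95% interval of -0.11 to 0.18 in aged mice.

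The transporter members *Abcb1a*, *Slco1a4*, *Slco1c1* and *Mfsd2a* did not pass the test at either age. *Abcb1a* (ENSMUSG00000040584, chr5:8660077-8748575, plus strand) encodes the drug efflux pump P-glycoprotein. It measured 44.8, 37.4 and 37.98 CPM in young sham, 41.7, 42.4 and 36.3 CPM in young ICH, 41.8, 46.4 and 42.6 CPM in aged sham and 40.8, 36.5 and 38.9 CPM in aged ICH samples. Young groups overlapped, whereas every aged ICH sample lay below every aged sham sample. The log2FC was 0.00 ± 0.09 in young mice (adjusted *P* = 0.989, with the sign turned under other size factors and in DESeq2) and -0.17 ± 0.09 in aged mice (adjusted *P* = 0.227), by edgeR. Its 553 exonic bases shared with *Gm42686* on the other strand, and its similarity to *Abcb1b*, leave the assignment of some reads uncertain.

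*Slco1a4* (ENSMUSG00000030237, chr6:141805440-141856199, minus strand) encodes an organic anion transporter of the capillary wall, and *Slco1c1* (ENSMUSG00000030235, chr6:141524368-141570177, plus strand), its neighbour on the chromosome, encodes the thyroxine transporter. *Slco1a4* measured 77.6, 69.3 and 62.3 CPM in young sham, 65.2, 69.8 and 49.5 CPM in young ICH, 62.0, 71.1 and 64.7 CPM in aged sham and 61.5, 51.1 and 55.6 CPM in aged ICH samples. Its aged ICH samples all lay below the aged sham samples, and the young groups overlapped. The log2FC of *Slco1a4* was -0.18 ± 0.12 in young mice (adjusted *P* = 0.339) and -0.23 ± 0.12 in aged mice (adjusted *P* = 0.243), by edgeR, with 95% intervals of -0.45 to 0.09 and -0.51 to 0.04. Related *Slco1a* genes are similar in sequence, so the assignment of some of its reads is uncertain. *Slco1c1* measured 63.7, 62.8 and 51.8 CPM in young sham, 46.8, 47.3 and 74.1 CPM in young ICH, 54.1, 64.7 and 58.3 CPM in aged sham and 57.6, 60.0 and 41.6 CPM in aged ICH samples. Its highest value was that of young ICH sample 3, the sample with the most choroid plexus RNA, and the 3 ICH samples with little of it (13.9 to 60 CPM) were the 3 lowest of all 12. Its log2FC was -0.09 ± 0.18 in young mice (adjusted *P* = 0.782) and -0.15 ± 0.18 in aged mice (adjusted *P* = 0.621), by edgeR. Without the 3 samples with choroid plexus RNA it was -0.34 ± 0.11 in young and -0.50 ± 0.14 in aged mice, the latter with 1 ICH sample. In that setting *Slco1c1* was called at neither age. Of 8 astrocyte genes 3 rose in young mice, and 1 rose and 2 fell in aged mice. The part of choroid plexus and astrocyte RNA in these values was not tested.

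**Figure D2:**
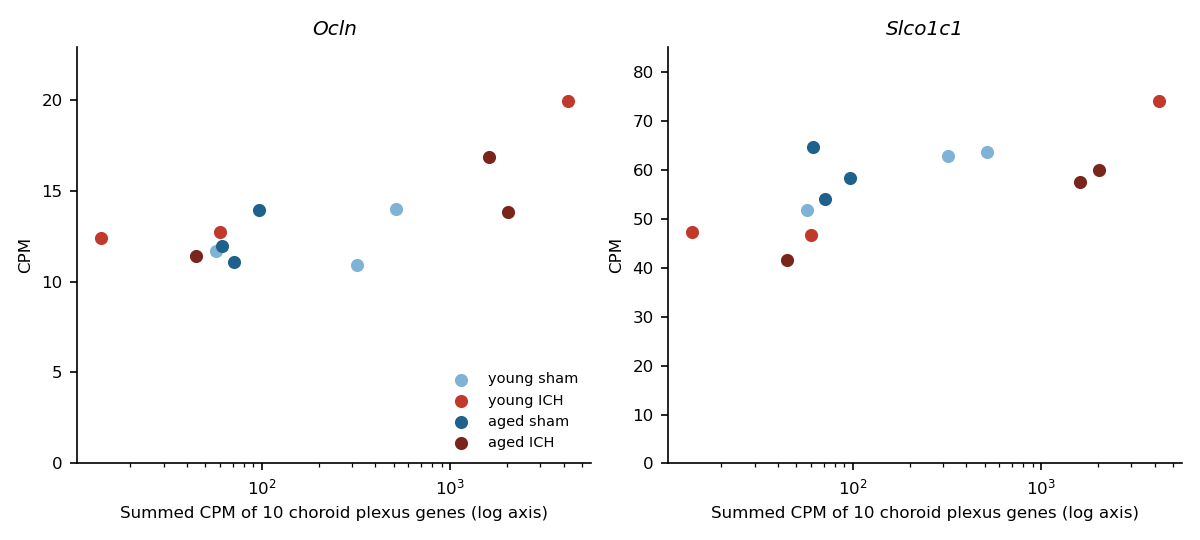
Level of *Ocln* (left) and *Slco1c1* (right) in CPM on the vertical axis against the summed CPM of 10 choroid plexus genes on a log horizontal axis, with 1 point per sample coloured by group. Young ICH sample 3, farthest to the right at 4207 CPM, has the highest level of both genes.

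*Mfsd2a* (ENSMUSG00000028655, chr4:122946850-122961188, minus strand) encodes the lysolipid transporter that brings docosahexaenoic acid into the brain and holds down vesicle transport across the endothelium. It measured 28.1, 19.4 and 24.5 CPM in young sham, 31.2, 24.2 and 24.99 CPM in young ICH, 18.4, 21.1 and 16.6 CPM in aged sham and 16.2, 20.6 and 16.6 CPM in aged ICH samples. Sham and ICH samples overlapped at each age, and after ICH every aged sample lay below every young sample. Its response to ICH did not pass the test in young (log2FC 0.16 ± 0.15, adjusted *P* = 0.507) or aged mice (log2FC -0.07 ± 0.15, adjusted *P* = 0.806), by edgeR.

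**Figure D3:**
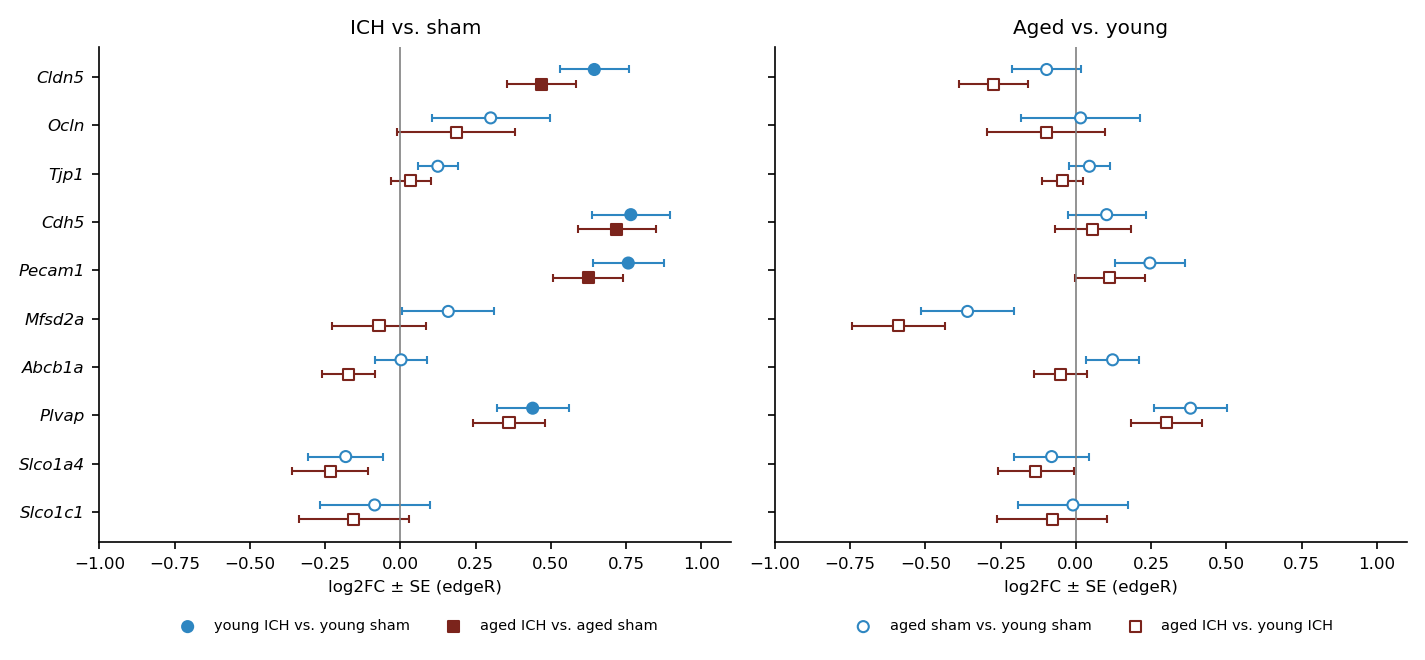
Log2FC ± SE from edgeR (horizontal axis) of the 10 genes (vertical axis), for ICH vs. sham at each age (left) and for aged vs. young under each surgery (right). Filled symbols have an adjusted *P* under 0.05, which 4 genes reach in young and 3 in aged mice after ICH and 0 genes reach for age.

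Between the ages, 0 of the 10 genes were called by edgeR. In sham mice 2 had an unadjusted *P* under 0.05 (*Mfsd2a*, *Plvap*) where 12.3% of all genes did, and DESeq2 called 0. Of the 21495 genes tested edgeR called 22 (0.102%) and DESeq2 294. After ICH 3 had an unadjusted *P* under 0.05 (*Cldn5*, *Mfsd2a*, *Plvap*) where 9.54% of all genes did, and DESeq2 called 1 (*Mfsd2a*). Over all genes tested edgeR then called 12 (0.0558%) and DESeq2 198. The log2FC of *Mfsd2a*, aged over young, was -0.36 ± 0.15 after sham surgery (adjusted *P* = 0.375 by edgeR) and -0.59 ± 0.15 after ICH (adjusted *P* = 0.245 by edgeR and 0.037 by DESeq2). The ICH value met the DEG limits of the study, which 1.3% of all genes tested met in that direction. *Plvap* had every aged sample above every young sample under the same surgery. In sham mice 2 of the 10 genes (*Pecam1*, *Plvap*) lay above and 0 below without overlap, where 9.81% and 11.2% of all genes did, and after ICH 1 lay above (*Plvap*) and 1 below (*Mfsd2a*), where 6.9% and 6.42% did. *Pecam1* had a log2FC of 0.25 ± 0.12 in sham mice (adjusted *P* = 0.422 by edgeR). The log2FC of *Plvap* was 0.38 ± 0.12 after sham surgery (adjusted *P* = 0.252 by edgeR) and 0.30 ± 0.12 after ICH (adjusted *P* = 0.456 by edgeR). *Cldn5* had a log2FC of -0.10 ± 0.12 after sham surgery (adjusted *P* = 0.779 by edgeR) and -0.27 ± 0.11 after ICH (adjusted *P* = 0.487 by edgeR), and its groups overlapped. Without the 3 samples with choroid plexus RNA the log2FC after ICH was -0.74 for *Mfsd2a*, 0.43 for *Plvap* and -0.33 for *Cldn5* (adjusted *P* = 0.70, 0.733 and 0.733 by edgeR).

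The age difference averaged over sham and ICH samples, a contrast added after the data had been seen, rests on 6 samples of each age. For *Mfsd2a* it was -0.48 ± 0.11 (adjusted *P* = 0.0578 by edgeR and 0.0026 by DESeq2). For *Plvap* it was 0.34 ± 0.08 (adjusted *P* = 0.0706 by edgeR and 0.015 by DESeq2), and for *Cldn5* -0.19 ± 0.08 (adjusted *P* = 0.256 by edgeR). Thus 0 of the 10 genes were called by edgeR and 2 by DESeq2, where of the 21495 genes tested edgeR called 273 (1.27%) and DESeq2 1142. Without the 3 samples with choroid plexus RNA the mean difference was -0.55 for *Mfsd2a*, 0.40 for *Plvap* and -0.21 for *Cldn5* (adjusted *P* = 0.162, 0.151 and 0.251 by edgeR).

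The ICH response did not differ detectably between the ages. By edgeR 0 of the 10 genes, and 0% of all genes, had an adjusted *P* under 0.05 for the difference, 0 of the 10 had an unadjusted *P* under 0.05 where 2.82% of all genes did, and DESeq2 also called 0 of the 10. The log2 difference of aged minus young was below 0 for 10 of 10 genes, from -0.23 ± 0.22 for *Mfsd2a* and -0.18 ± 0.16 for *Cldn5* to -0.05 ± 0.18 for *Cdh5*. The median over the 10 genes was -0.10, where that over all genes tested was -0.005. Among the 20 general endothelial genes 2 had a difference above 0 and the median was -0.24, so the common sign does not set the members apart. The 95% interval reached from -0.53 to 0.18 for *Cldn5*, from -0.44 to 0.35 for *Cdh5* and from -0.49 to 0.23 for *Pecam1*. A weaker or a stronger rise in aged mice by up to these amounts was thus within the precision. Without the 3 samples with choroid plexus RNA the difference was above 0 for *Cdh5* (0.02), *Pecam1* (0.01) and *Plvap* (0.05).

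The members were next set against 20 general endothelial genes, which do not include them. Of these genes 12 rose and 1 fell in young mice, with a median log2FC of 0.45, and 7 rose and 1 fell in aged mice, with a median of 0.25. In young mice those with the smallest *P* among the rises were *Nos3* (endothelial nitric oxide synthase, log2FC 0.94 ± 0.11), *Robo4* (a guidance receptor, 0.78 ± 0.09), *Vwf* (von Willebrand factor, 1.08 ± 0.15) and *Eng* (endoglin, 0.71 ± 0.12), and *Itm2a* fell by 0.56. In aged mice the rises included *Robo4* (0.50 ± 0.09), *Nos3* (0.57 ± 0.11), *Vwf* (0.73 ± 0.14) and *Fli1* (a transcription factor, 0.55 ± 0.11), while *Itm2a* fell by 0.78. The mean log2 CPM of the 20 genes was 0.42 higher in young ICH than in young sham mice with no overlap, and 0.20 higher in aged ICH mice with overlap. Without the 3 samples with choroid plexus RNA, 10 of the 20 genes rose in young and 0 in aged mice, with medians of 0.39 and 0.15, and their mean was 0.41 and 0.12 higher after ICH. In the full set 0 of 8 neuronal genes rose, while 3 fell in young and 0 in aged mice. All 8 genes of striatal projection neurons had a log2FC below 0 at both ages (median -0.95 in young and -1.11 in aged mice), of which 0 were called. Of 8 oligodendrocyte genes 0 were called in young mice, and 4 fell in aged mice, where the median was -0.56. The part of these neural genes in the rise of vascular genes was not tested.

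Relative to that mean, *Cldn5*, *Cdh5* and *Pecam1* were higher in every ICH sample than in every sham sample of the same age. The log2 difference was 0.22 for *Cldn5*, 0.34 for *Cdh5* and 0.33 for *Pecam1* in young mice, while aged mice gave 0.25, 0.52 and 0.43, each with an exact permutation *P* of 0.1 (two-sided), the smallest that 3 against 3 samples allow. Of all genes tested, 4.25% in young and 7.31% in aged mice lay above without overlap on this scale. With the median in place of the mean of the 20 genes, the young groups overlapped for *Cdh5* (difference 0.33). The differences for *Cldn5*, *Cdh5* and *Pecam1* without the 3 samples with choroid plexus RNA were 0.20, 0.27 and 0.26 in young mice, while aged mice, with 1 ICH sample, gave 0.25, 0.57 and 0.56. *Plvap* differed by 0.00 in young and 0.16 in aged mice, with overlap, and with the median by 0.30 in aged mice, where every ICH sample then lay above every sham sample (exact permutation *P* = 0.1). *Tjp1*, *Abcb1a* and *Slco1a4* lay below without overlap at both ages, with differences of -0.30, -0.42 and -0.61 in young mice, while aged mice gave -0.17, -0.37 and -0.44. That was also the place of 52.4% of all genes in young and 24.2% in aged mice, so it does not set these 3 genes apart. With the median the aged groups overlapped for *Tjp1* (difference -0.02) and *Abcb1a* (-0.23).

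On the same scale *Mfsd2a* was lower in every aged sample than in every young sample of the same surgery. The differences were -0.46 in sham and -0.48 in ICH mice (exact permutation *P* = 0.1 each). The margin was narrow, with nearest values of -0.187 in aged and -0.183 in young sham mice. After ICH they were -0.348 in aged and -0.335 in young mice. Of all genes, 13.8% in sham and 1.45% in ICH mice were likewise lower without overlap. *Plvap* was higher without overlap, by 0.27 in sham and 0.42 in ICH mice (exact permutation *P* = 0.1 each), as were 4.06% and 9.57%. *Cldn5* was lower without overlap, with differences of -0.21 in sham and -0.18 in ICH mice (exact permutation *P* = 0.1 each), but with the median of the 20 genes the latter difference was -0.03 with overlap. With that median the sham groups also overlapped for *Mfsd2a* (difference -0.47). The ICH differences against the mean were -0.55 for *Mfsd2a*, 0.60 for *Plvap* and -0.16 for *Cldn5* without the 3 samples with choroid plexus RNA.

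**Figure D4:**
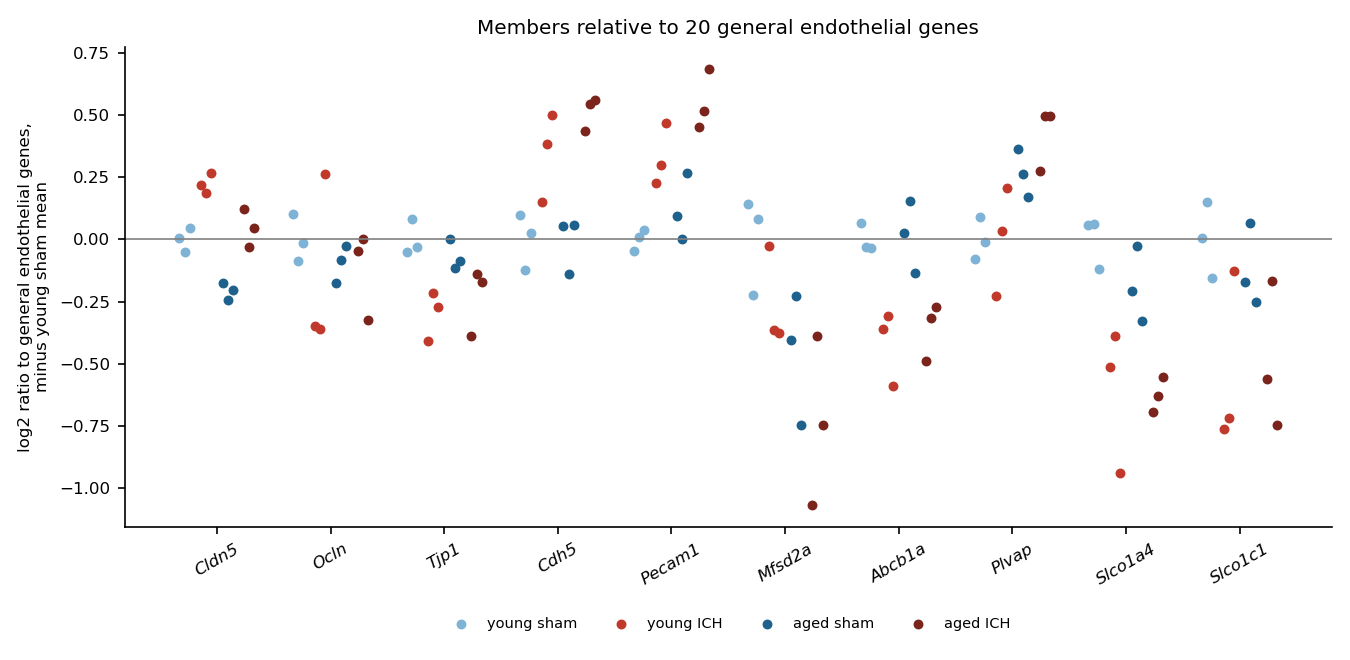
Log2 CPM of each gene minus the mean log2 CPM of 20 general endothelial genes in the same sample, centred on the young sham mean of the gene (vertical axis), for the 10 genes (horizontal axis). Each point is 1 of the 12 samples, coloured by group. *Cdh5* and *Pecam1* lie above the sham samples of their age in all ICH samples. Every aged *Mfsd2a* sample lies below every young sample of the same surgery, the nearest ones by a narrow margin.

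Other genes of the same functions were counted from lists of well-known genes, to be read against the 9.89% of all genes that rose in young and the 7% that rose in aged mice. Of 16 other junction genes 4 rose and 1 fell in young mice, with a median log2FC of 0.40, and 2 rose and 0 fell in aged mice, with a median of 0.24. The adhesion gene *Esam* rose at both ages (log2FC 0.62 ± 0.09 and 0.45 ± 0.09). The tricellular junction genes *Lsr* (0.79 ± 0.20) and *Marveld2* (0.75 ± 0.24) rose in young mice, where the adherens junction gene *Afdn* fell by 0.28, and *Nectin2* rose in aged mice (0.66 ± 0.17).

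Of 16 other transporter genes 4 rose and 2 fell in young mice, with a median log2FC of -0.02, and 3 rose and 3 fell in aged mice, with a median of -0.08. Carriers of glucose (*Slc2a1*, 0.67 ± 0.13 in young and 0.45 ± 0.13 in aged mice) and monocarboxylates (*Slc16a1*, 0.98 ± 0.17 and 0.90 ± 0.17) and the amino acid carrier subunit *Slc3a2* (0.44 ± 0.07 and 0.48 ± 0.07) rose at both ages. The efflux pump gene *Abcb1b*, a close relative of *Abcb1a*, rose in young mice (0.78 ± 0.24). The taurine carrier *Slc6a6* fell by 0.32 in young and by 0.44 in aged mice, the transferrin receptor *Tfrc* fell by 0.50 in young mice, and the thiamine carrier *Slc19a3* and the organic anion carrier *Slc22a8* fell by 1.13 and 0.98 in aged mice. One gene of this list was called between the ages after ICH. *Slc38a5*, an amino acid carrier, had 5.86 to 7.09 CPM in young ICH and 1.79 to 3.01 CPM in aged ICH samples (log2FC -1.38 ± 0.18, adjusted *P* = 0.0264 by edgeR), and in sham mice 6.63 to 6.85 and 3.01 to 3.95 CPM (log2FC -0.94 ± 0.18, adjusted *P* = 0.103 by edgeR). Its log2FC after ICH was -1.81 without the 3 samples with choroid plexus RNA, with an adjusted *P* of 0.147 by edgeR.

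Of 8 genes of caveolar vesicles 3 rose in young (*Ehd4*, *Cavin1*, *Dnm2*) and 2 in aged mice (*Ehd4*, *Cavin1*), and 0 fell. Of 23 Wnt and barrier transcription factor genes 6 rose in young mice and 2 in aged mice, the latter close to the share of all genes, and 0 fell. The endothelial factor *Sox7* (log2FC 0.82 ± 0.23 in young and 0.95 ± 0.22 in aged mice) and the ligand *Wnt7b* (0.35 ± 0.09 and 0.35 ± 0.09) rose at both ages, and the nuclear receptor *Ppard* (0.39 ± 0.09) and the ligand *Ndp* (0.40 ± 0.10) in young mice. Genes of sprouting and fenestrated endothelium (the sprouting list) had a median log2FC of 0.67 in young and 0.40 in aged mice. Of these 10 genes, 8 in young and 5 in aged mice had a log2FC above 0. Genes of activated endothelium had a median of 1.41 and 0.97, with 7 and 8 of the 8 genes above 0. Of 10 sprouting genes 4 rose at each age, namely *Angpt2* (an antagonist of the Tie2 receptor, 1.86 ± 0.30 in young and 1.25 ± 0.28 in aged mice), *Pgf*, *Dll4* and *Cxcr4*. Of 8 genes of activated endothelium 4 rose in young (*Lrg1*, *Socs3*, *Ch25h*, *Icam1*) and 3 in aged mice (*Lrg1*, *Socs3*, *Ch25h*), from 1.5 to 2.17 and from 1.05 to 1.81 on the log2 scale. Immune and glial cells also express several of these genes, among them *Cxcr4*, *Socs3* and *Icam1*. Of 10 pericyte genes *Pdgfrb* (log2FC 0.57 ± 0.09 and 0.36 ± 0.09) and *Ifitm1* (1.5 ± 0.25 and 1.42 ± 0.25) rose at both ages. The median of the pericyte list was 0.26 in young and -0.15 in aged mice, with 8 and 4 of the 10 genes above 0. Of 8 smooth muscle genes *Des* (0.87 ± 0.19 and 0.70 ± 0.19) rose at both ages, which is also close to the share of all genes. The median of the smooth muscle list was 0.43 in young and 0.02 in aged mice, with 8 and 4 of the 8 genes above 0. All these calls are by edgeR at the same threshold. Without the 3 samples with choroid plexus RNA, 4.82% of all genes rose and 4.81% fell in young mice. Young mice then had 2 genes higher in the junction list, 3 higher and 1 lower in the transporter list and 3 higher in the sprouting list. The caveolar, Wnt, activated endothelium and pericyte lists each had 2 higher, and the smooth muscle list 1. In aged mice, with 1 ICH sample left, calls are not compared. The median log2FC there was 0.12 for the junction, -0.11 for the transporter, 0.28 for the caveolar and -0.10 for the Wnt list. It was 0.23 for the sprouting, 0.79 for the activated, -0.23 for the pericyte and -0.22 for the smooth muscle list.

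**Figure D5:**
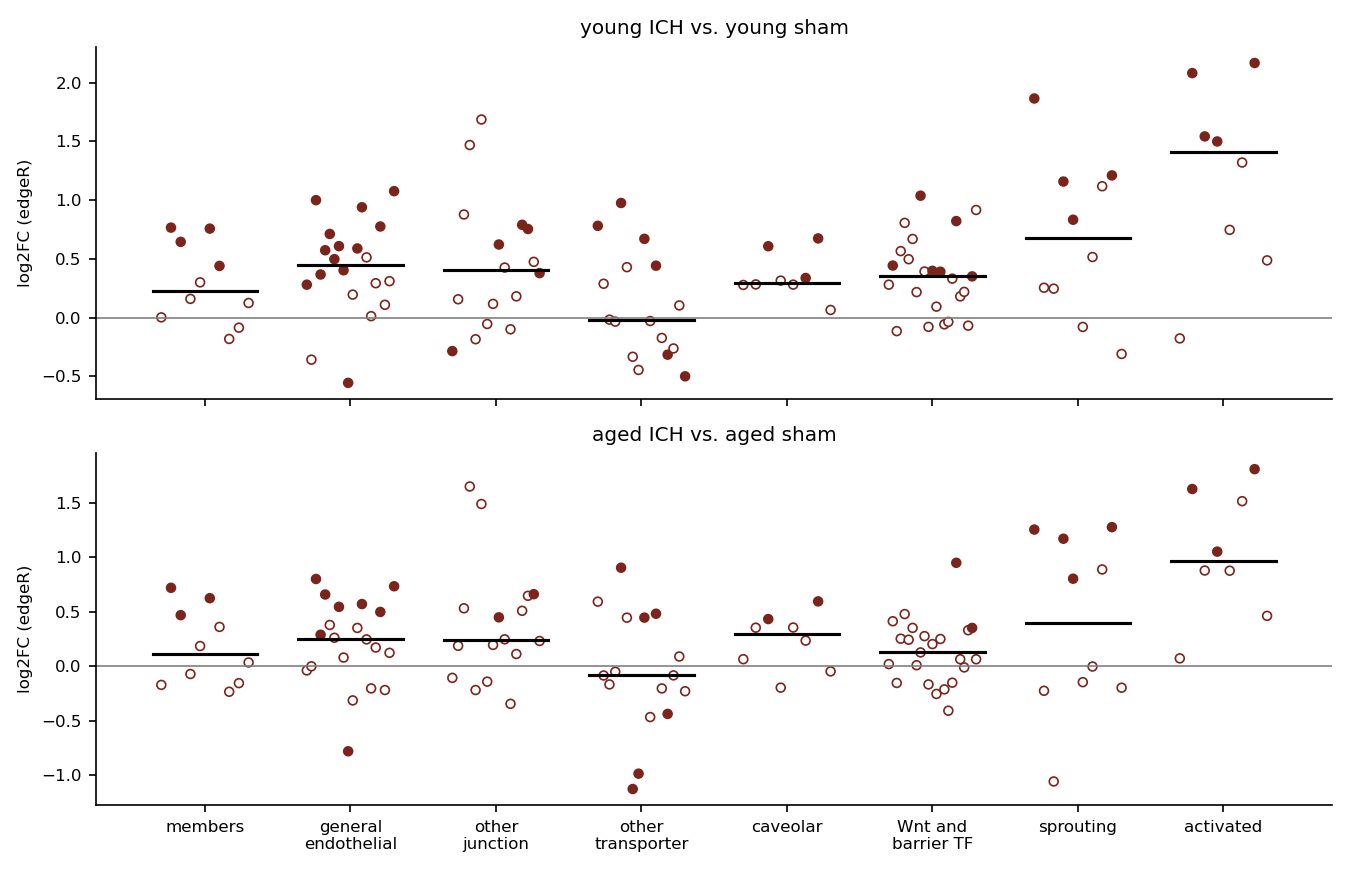
Log2FC from edgeR (vertical axis) of the 10 members and of 7 other lists of vascular genes (horizontal axis) for ICH vs. sham in young (top) and aged mice (bottom). Each point is a gene, filled when its adjusted *P* is under 0.05, and the black bar is the median of the list. The members' medians of 0.23 and 0.11 lie below those of the general endothelial genes at 0.45 and 0.25.

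The genes whose pattern was most like each called member were found by the root mean square (RMS) difference of log2 CPM over the 12 samples, after centring each gene on its own mean. *Cdh5* and *Pecam1* were the members nearest to each other, at an RMS difference of 0.10, and *Abcb1a* and *Slco1a4* were nearest to each other at 0.12. Among all genes tested the nearest to *Cldn5* were *Col4a2*, *Zbtb7b* and *Spsb1* (RMS difference 0.10 to 0.11, where the spread of *Cldn5* itself was 0.32), and *Col4a2* encodes a collagen chain of the vascular basement membrane. The nearest to *Cdh5* were *Fam129b*, *Jak3* and *Cd151* (0.08 to 0.09, spread 0.40), to *Pecam1* *Shc1*, *Ostf1* and *Slc22a4* (0.07 to 0.08, spread 0.38) and to *Plvap* *Cdc14b*, *Mob3a* and *Car5b* (0.08 to 0.09, spread 0.28).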

How the data were processed

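RNA had been extracted with TRIzol, and paired-end libraries were prepared with a NEBNext Ultra kit. Per the labels, the authors used HISAT2, featureCounts (Subread) and build GRCm38.p6, and they deposited for each gene the raw count and the FPKM of every sample (fragments scaled by transcript length and mapped depth). The strand setting of the count was not given in the sources used here. All 12 columns of each kind were assigned to samples by name.

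Counts were tested with edgeR 4.0.16 (limma 3.58.1, R 4.3.3) in one quasi-likelihood fit with 4 groups, TMM scaling and filterByExpr at a minimum count of 10. CPM use the TMM library sizes, and log2 CPM a prior count of 2. FPKM were used as deposited, to compare genes by length. DESeq2 1.42.0, other scaling, no filter, a replicate block, samples left out and the DEG limits of the study (FC > 1.5 or < 0.67, unadjusted *P* under 0.05) were alternatives. With depths of 28410896 to 37785160 counts, replicates differed beyond sampling noise (chi-square per gene 10.5 to 49.3), and *P* values measure the spread between pooled samples. Members, lists and tests were chosen with earlier results of these data known. *Fn1* was named for its level. Otherwise, all members were named, and up to 4 called genes per list, comparison and direction, ranked by *P*. The 3 genes nearest to each member called after ICH were named too. One gene that this rule names is not reported here. The choice of samples with over 1000 CPM of choroid plexus genes and the mean age contrast were added after the data had been seen. Positions are from GENCODE vM21 and upstream windows from RefSeq, both on GRCm38.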

Additional observations from a re-analysis of the deposited data

How the results depend on the processing

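The calls of *Cldn5*, *Cdh5* and *Pecam1* in young mice and of *Cdh5* and *Pecam1* in aged mice were kept under all scalings, without the filter, with DESeq2, with only the groups compared, with the replicate block and without each sample in turn. In aged mice these calls were lost without the 3 samples with choroid plexus RNA, which leaves 1 aged ICH sample. *Plvap* in young mice lost its call without the filter (adjusted *P* = 0.0599 by edgeR) and with only the groups compared (0.0991), and the latter setting ended the call of *Cldn5* in aged mice (0.0522) and passed *Plvap* there (0.047). Replicate numbers gave no sign of pairing, since correlations between groups were -0.45 to 0.23 for same-numbered samples and -0.37 to 0.41 for the others. The replicate block gave 4, 3, 0, 0 and 0 called members as without it. Over all genes tested, edgeR called 22 genes in aged vs. young sham, 12 in aged vs. young ICH mice and 273 for the mean age difference, the replicate block 12, 8 and 127, and DESeq2 294, 198 and 1142. Between the ages after ICH, 1 member was called lower by DESeq2 and 1 by the limits of the study, *Mfsd2a* in both. For the mean age difference DESeq2 called 1 member higher and 1 lower, 1 was called lower without the filter, and leaving out single samples gave 0 to 1 higher and 0 to 1 lower.

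Differences near 0 changed sign. *Abcb1a* in young mice after ICH gave -0.0067 with the size factors of DESeq2 in edgeR and -0.0072 in DESeq2, *Slco1c1* in aged vs. young sham mice 0.016 with upper quartile scaling, and without the 3 samples with choroid plexus RNA *Ocln* in aged mice gave -0.11 and the difference of ICH responses 0.023 for *Cdh5*, 0.012 for *Pecam1* and 0.049 for *Plvap*. Without single samples, log2FC after ICH ranged from -0.046 to 0.0904 for *Abcb1a* and from -0.34 to 0.0296 for *Slco1c1* in young mice, and from -0.013 to 0.085 for *Tjp1* and from -0.19 to 0.025 for *Mfsd2a* in aged mice. In aged vs. young sham mice they ranged from -0.084 to 0.13 for *Ocln*, from -0.0059 to 0.092 for *Tjp1*, from -0.16 to 0.00302 for *Slco1a4* and from -0.101 to 0.048 for *Slco1c1*, and in aged vs. young ICH mice from -0.25 to 0.16 for *Ocln*, from -0.037 to 0.15 for *Cdh5* and from -0.19 to 0.17 for *Slco1c1*. The difference of ICH responses ranged from -0.27 to 0.14 for *Ocln*, from -0.15 to 0.053 for *Cdh5*, from -0.22 to 0.013 for *Pecam1*, from -0.19 to 0.046 for *Plvap*, from -0.19 to 0.052 for *Slco1a4* and from -0.18 to 0.18 for *Slco1c1*. The causes were not tested, and none of these differences passed the test in any of these settings.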
